A study of Mus musculus with 12 samples.

Results

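The genes described here are the Notch receptors Notch1, Notch2, Notch3 and Notch4, the ligands Dll1, Dll4, Jag1 and Jag2, and the target genes Hey1 and Hey2, 10 of the 55679 genes in the deposited table. They are listed by name, as receptors and ligands cut by ADAM proteases with their targets, and were chosen with earlier results of these data known. Every one of the 10 carries the table's mark of a detected gene and entered each test. RNA was sequenced from the whole lung and whole heart of 6 male mice of the 129S6/SvEvTac strain, with 1 library for each organ of each mouse. Adam19 WT mice (n = 3) carried the normal gene, and Adam19 KO mice (n = 3) were homozygous for an Adam19-tdTomato allele in which a pair of coding exons is replaced by a red fluorescent reporter. All were young adults by the study's methods, and the labels name no treatment. A library number stands for the same mouse in both organs, so that WT lung 1 and WT heart 1 come from 1 animal. By their identifier prefixes no WT mouse belongs with a KO mouse, and whatever a prefix marks cannot be told apart from genotype.

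Notch signalling passes between cells in contact. A receptor is bound by a Delta-like or Jagged ligand on a neighbouring cell, is cut outside the membrane by an ADAM protease and then within it by gamma-secretase, and the freed intracellular part joins the DNA-binding protein RBPJ in the nucleus to switch on genes of the Hes and Hey families. In blood vessels the pathway helps set artery from vein, tip from stalk cells and the coat of smooth muscle, and in the developing lung and heart it takes part in airway cell choice and in the formation of valves and trabeculae. ADAM10 is the protease best known for the outer cut, and ADAM19 belongs to the same family.

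The Hey genes encode transcriptional repressors. The promoter of Hey2 is shown first because Hey2 lies downstream of RBPJ and, unlike Hey1, was higher in heart. Heyl, a target that is not among the genes described, was also higher in WT hearts. In the 250 bases before the start of its main transcript (GRCm39, start from GENCODE), the letters GTGGGAA, which RBPJ is known to recognise, were searched on both strands. They stood there 1 time, on the strand opposite to the gene, from −158 to −152 before the start. The stretch below is chr10:30718829-30719078 (minus strand, 250 bases), written 5′ to 3′ in the direction of transcription, and the capitals mark the match as read on that strand.
Hey2: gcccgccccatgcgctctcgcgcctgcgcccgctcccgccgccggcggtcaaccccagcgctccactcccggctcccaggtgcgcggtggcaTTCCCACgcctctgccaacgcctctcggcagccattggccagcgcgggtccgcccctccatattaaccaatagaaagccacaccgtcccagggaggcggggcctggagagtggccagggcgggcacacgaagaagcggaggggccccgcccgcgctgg
The same letters stood in 1192 of 21770 promoters of this length, 5.48%. They were in none of the promoters of the 4 receptors and 4 ligands, and of 4 other Notch target genes Hes1 held them 1 time and Hes5 on both strands, 2 times in all, while Heyl and Nrarp did not hold them in this window. The window of Hey2 was 73.6% G or C, against 56.0% (Notch4) to 69.6% (Jag2) for the receptors and ligands. A match of letters is a description and not a site of binding, and the absence of a match covers this window only.

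Values are the deposited normalized abundances on a log2 scale, so that 1 unit is a fold of 2. The libraries summed to between 17674788 and 35862932 estimated counts. Adam19 itself stood at 9.14, 9.41 and 9.12 in WT lungs and at 4.44, 3.21 and 3.50 in KO lungs, and at 9.17, 9.25 and 10.27 in WT hearts and at 6.67, 6.01 and 6.56 in KO hearts. The gene that was knocked out was therefore low in every library labelled KO. The 6 lung epithelium markers summed to between 18.52 and 18.93 in lungs and to between 6.19 and 10.54 in hearts, with Foxj1 and Epcam at 0 in at least 1 heart, and the 6 heart muscle markers to between 20.66 and 20.93 in hearts and to between 13.07 and 14.52 in lungs, so the organ labels matched their defining genes. Nothing in the labels says whether RNA was extracted in batches.

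**Figure D1:**
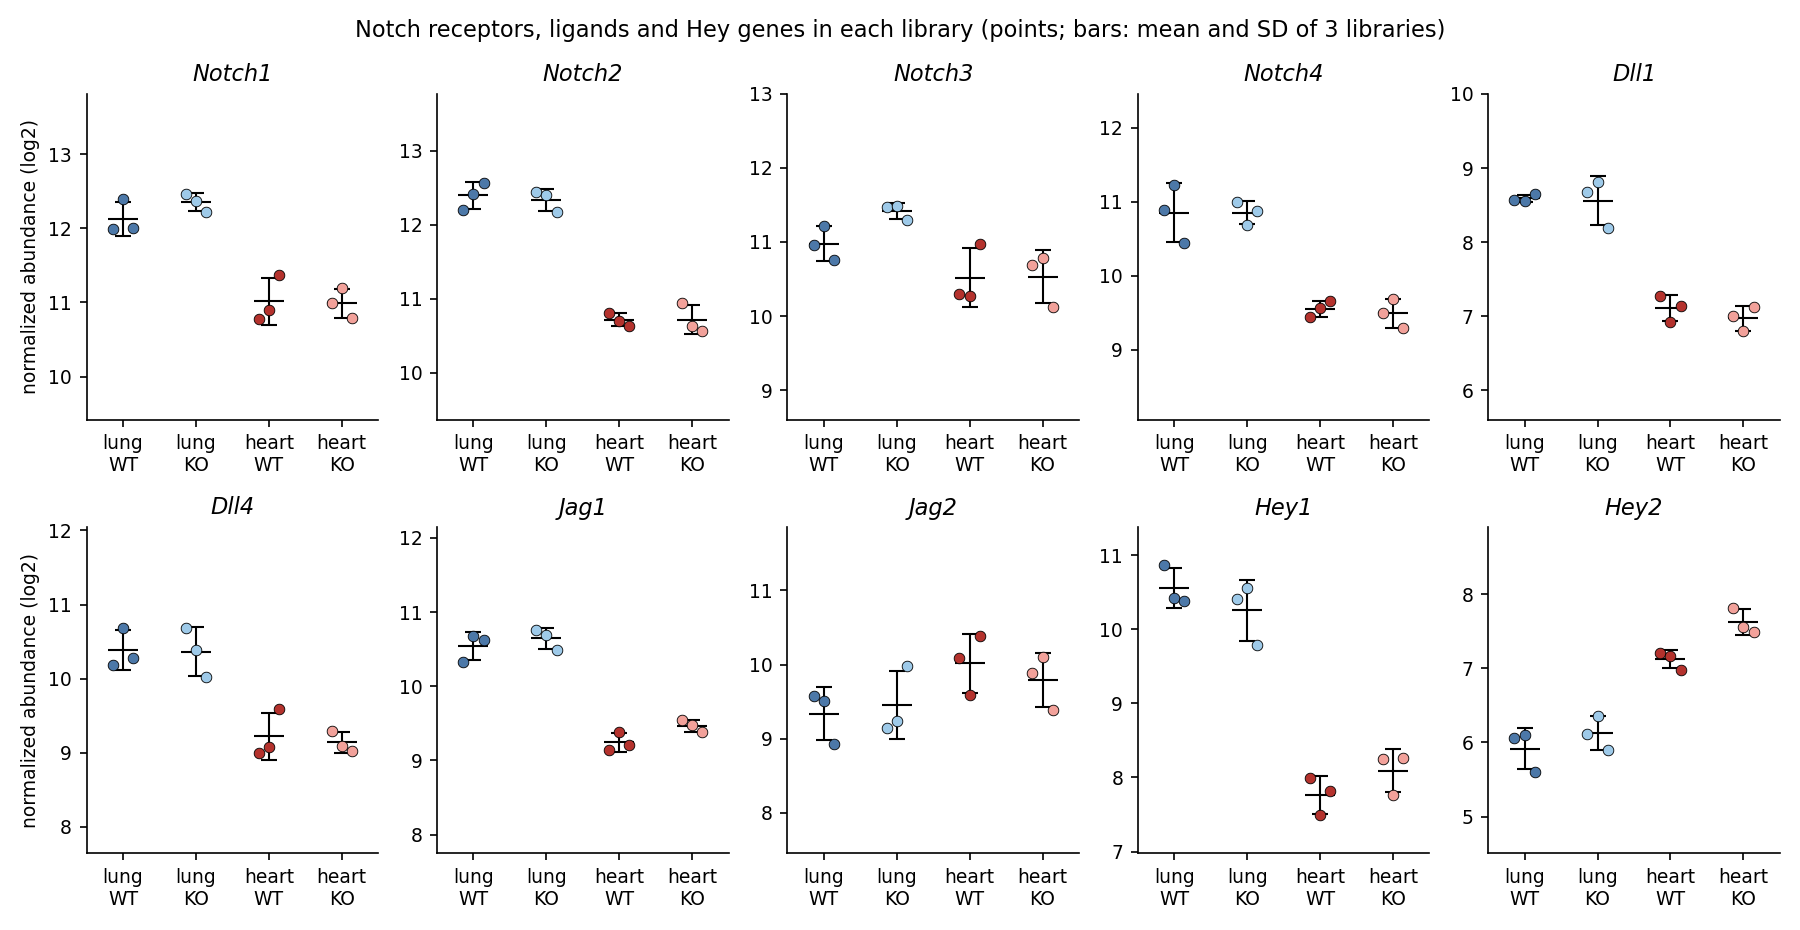
Normalized abundance (log2, y axis, scaled alike in each panel) of the 10 genes in each of 12 libraries, by organ and genotype (x axis). Points are libraries and bars the mean with SD of 3. Hey1 and Hey2 lie on opposite sides between the organs, and WT and KO points overlap in most panels.

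The first comparison asked where each gene is expressed more, lung or heart, in WT mice and separately in KO mice. In both genotypes 9 of 10 members passed the thresholds (limma, Benjamini-Hochberg adjusted p under 0.05 over all genes tested, fold of at least 1.5 and a group mean of at least 6). Of all genes tested, 50.2% passed in WT and 53.2% in KO mice, so passing is in itself common between organs. In WT mice 7 members were higher in lung, where 29.7% of all genes passed in that direction, and 2 were higher in heart, where 20.5% did. In KO mice 8 were higher in lung (30.9% of all genes) and 1 was higher in heart (22.3%). The median member difference, lung minus heart, was 1.23 in WT and 1.29 in KO mice, against a median over all tested genes of 0.30 and 0.28.

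Of the receptors, Notch1 and Notch2 are broadly expressed, Notch4 is known for endothelial cells and Notch3 for smooth muscle cells and pericytes. Notch2 (chr3:97920800-98057677, plus strand) was at 12.20, 12.42 and 12.57 in WT lungs and at 10.81, 10.70 and 10.64 in WT hearts. In KO mice it was at 12.44, 12.40 and 12.17 in lungs and at 10.95, 10.64 and 10.57 in hearts. No lung library came near a heart library. Lung exceeded heart by 1.68 in WT (SE 0.16, limma adjusted p = 3.24e-05) and by 1.62 in KO mice (SE 0.14, limma adjusted p = 1.28e-05), a fold of 3.21 and 3.07.

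Notch1 (chr2:26347915-26406675, minus strand) was at 12, 12.39 and 12 in WT lungs and at 10.78, 10.89 and 11.37 in WT hearts. In KO lungs it read 12.46, 12.37 and 12.23, and in KO hearts 10.99, 11.19 and 10.79. All lungs lay above all hearts, with WT heart 3 the highest of the hearts. The difference was 1.11 in WT (SE 0.21, limma adjusted p = 0.00165) and 1.36 in KO mice (SE 0.13, limma adjusted p = 2.69e-05). Notch1 shares 1494 exonic bases on the opposite strand with 0610009E02Rik, a long noncoding RNA gene that stood between 0.00 and 4.10 in the 12 libraries.

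Notch4 (chr17:34783220-34807477, plus strand) was at 10.88, 11.23 and 10.44 in WT lungs against 9.44, 9.57 and 9.66 in WT hearts. In KO lungs it was at 11, 10.69 and 10.87, and in KO hearts at 9.50, 9.69 and 9.29. Again no lung overlapped a heart, and WT lung 3 was the lowest of the lungs. The differences were 1.29 in WT (SE 0.21, limma adjusted p = 0.00089) and 1.36 in KO mice (SE 0.14, limma adjusted p = 3.69e-05).

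Notch3 (chr17:32339794-32385893, minus strand) stood apart from the other receptors. Its WT lungs read 10.96, 11.22 and 10.75 and its WT hearts 10.30, 10.27 and 10.97, so that WT heart 3 lay above WT lungs 1 and 3. Its KO lungs read 11.47, 11.48 and 11.29, all above the KO hearts at 10.69, 10.78 and 10.12. The WT difference of 0.46 did not pass (95% interval −0.06 to 0.98, limma adjusted p = 0.109), and without WT heart 3 it was 0.69 and passed (limma adjusted p = 0.0209). The KO difference of 0.88 passed (SE 0.18, limma adjusted p = 0.00201). Whether these differences differed between genotypes was tested in the interaction given further on, where Notch3 had an adjusted p of 0.744 in limma.

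Among the ligands, Dll4 is known for arterial endothelium and tip cells and Jag1 for arterial endothelium. Dll1 is known for many developing tissues and Jag2 for epithelia, lymphocyte development and some endothelial cells. Dll4 (chr2:119156170-119166443, plus strand) was at 10.18, 10.69 and 10.28 in WT lungs and at 9.0, 9.07 and 9.59 in WT hearts. Its KO lungs were at 10.69, 10.39 and 10.02 and its KO hearts at 9.30, 9.10 and 9.03. The organs did not overlap in either genotype. Lung was higher by 1.16 in WT (SE 0.22, limma adjusted p = 0.00181) and by 1.23 in KO mice (SE 0.17, limma adjusted p = 0.000283).

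Jag1 (chr2:136923373-136958693, minus strand) was at 10.32, 10.68 and 10.62 in WT lungs and at 9.14, 9.39 and 9.21 in WT hearts. It was at 10.76, 10.70 and 10.48 in KO lungs and at 9.54, 9.48 and 9.38 in KO hearts. It had the narrowest range of lung minus heart over the 6 mice of the 10 genes, from 1.11 to 1.41. The fitted differences were 1.30 in WT (SE 0.17, limma adjusted p = 0.000208) and 1.18 in KO mice (SE 0.11, limma adjusted p = 2.81e-05).

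Dll1 (chr17:15587276-15597134, minus strand) was the least abundant ligand. It was at 8.57, 8.55 and 8.64 in WT lungs and at 7.27, 6.92 and 7.14 in WT hearts. In KO mice it was at 8.67, 8.81 and 8.19 in lungs and at 7.0, 6.80 and 7.13 in hearts, and KO lung 3 was the lowest lung yet above every heart. Lung was higher by 1.48 in WT (SE 0.20, limma adjusted p = 0.000277) and by 1.58 in KO mice (SE 0.20, limma adjusted p = 0.000145). Dll1 shares 936 exonic bases on the opposite strand with Fam120b, which stood at 9.72 to 9.82 in hearts and at 9.89 to 10.23 in lungs. The libraries were strand-specific, but the strand setting of the counting is not given in the sources used here.

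Jag2 (chr12:112871421-112893437, minus strand) was the ligand that went the other way. WT lungs were at 9.57, 9.51 and 8.93 and WT hearts at 10.09, 9.59 and 10.38, with WT lung 1 just under WT heart 2. KO lungs were at 9.14, 9.24 and 9.98 and KO hearts at 9.89, 10.10 and 9.39, and KO lung 3 lay above KO hearts 1 and 3. Heart was higher by 0.68 in WT mice (95% interval of lung minus heart −1.27 to −0.09, limma adjusted p = 0.0474), which passed narrowly, and the KO difference of −0.34 did not pass (95% interval −0.93 to 0.26, limma adjusted p = 0.266). With the mouse as a block the WT call was lost (limma adjusted p = 0.077), and over 13 alternatives its adjusted p ran from 0.0193 to 0.158 and passed in 5. Without KO lung 3 the KO difference was −0.60 and passed (limma adjusted p = 0.0396). Jag2 was also the member whose deposited gene value lay farthest from the sum of its transcripts, by 0.64 in KO lung 3.

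Hey1 and Hey2 differed in opposite directions. Hey1 (chr3:8726956-8732385, minus strand) was at 10.87, 10.42 and 10.38 in WT lungs and at 7.99, 7.49 and 7.82 in WT hearts. In KO lungs it was at 10.41, 10.56 and 9.79 and in KO hearts at 8.25, 7.76 and 8.26. This was the widest separation of the 10, 2.79 in WT (SE 0.21, limma adjusted p = 1.09e-05) and 2.16 in KO mice (SE 0.23, limma adjusted p = 4.62e-05), or a fold of 6.92 and 4.47.

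Hey2 (chr10:30708350-30718828, minus strand), whose promoter is printed above, is known for ventricular heart muscle and arteries and was at 6.06, 6.10 and 5.60 in WT lungs and at 7.21, 7.16 and 6.98 in WT hearts. Its KO lungs were at 6.11, 6.36 and 5.91 and its KO hearts at 7.82, 7.56 and 7.49. Every heart lay above every lung. Heart was higher by a fold of 2.30 in WT (log2 difference of lung minus heart −1.20, SE 0.27, limma adjusted p = 0.00428) and 2.82 in KO mice (−1.50, SE 0.20, limma adjusted p = 0.000204).

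Within single mice, which removes what the organs of a mouse share, lung exceeded heart in 6 of 6 mice for Notch1, Notch2, Notch4, Dll1, Dll4, Jag1 and Hey1. Notch3 did so in 5 of 6, the exception being WT mouse 3 at −0.22. Jag2 was higher in heart in 5 of 6, the exception being KO mouse 3 at 0.60. With summed transcripts Jag2 in KO mouse 3 too was higher in heart, at 9.62 against 9.35 in lung. Hey2 was higher in heart in 6 of 6, by 1.07 to 1.71. With the mouse as a block, Jag2 in WT mice was the one member whose call changed. Under a median-ratio scaling the median of all genes moved from 0.30 to 0.16 in WT and from 0.28 to 0.12 in KO mice, and no member's direction between the organs flipped.

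**Figure D2:**
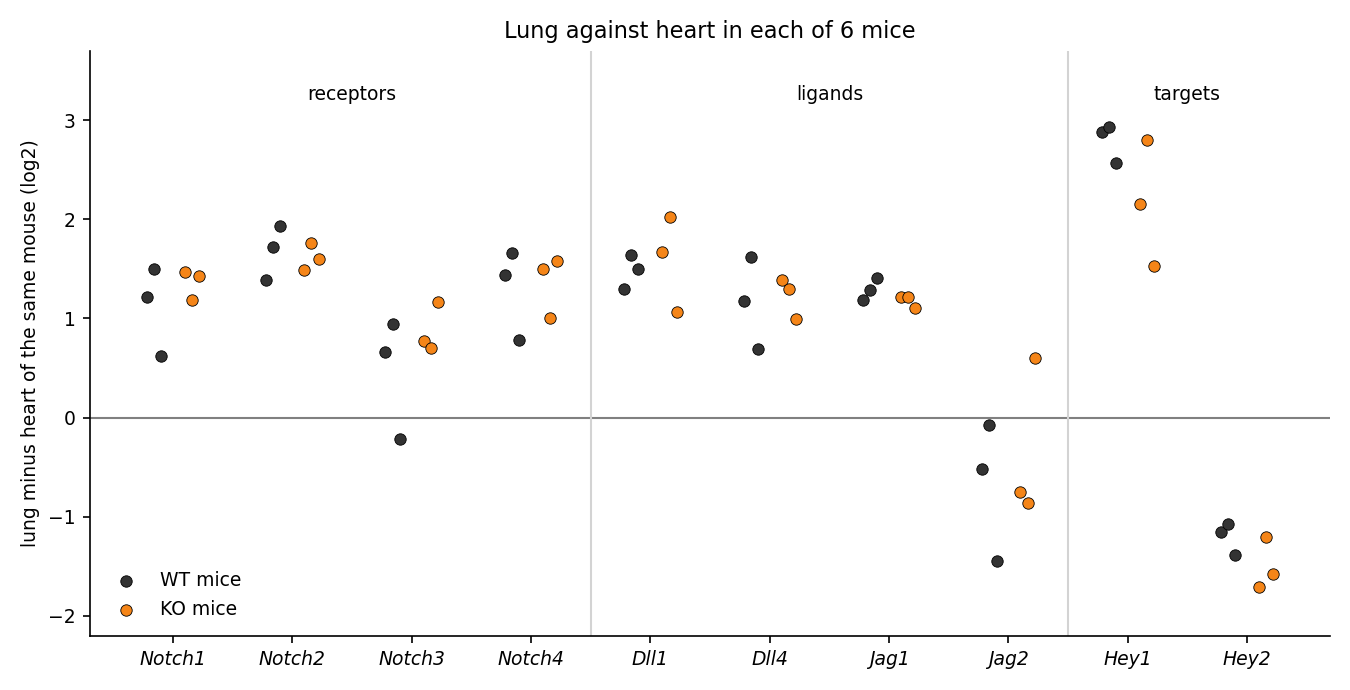
Lung minus heart of the same mouse (log2, y axis) for each gene (x axis), 1 point per mouse, WT dark and KO orange. Hey1 runs from 1.53 to 2.93 and Hey2 lies below 0 in all 6 mice, while Jag2 and Notch3 have mice on both sides of 0.

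Since each library held the RNA of many cell types, fewer cells of a type and less RNA per cell cannot be told apart in these differences. A list of 6 endothelium markers, none at 0 in any library, summed to between 15.61 and 15.76 in lungs and to between 14.05 and 14.18 in hearts, and 5 of the 6 passed higher in lung in each genotype. A list of 7 smooth muscle and pericyte markers, none at 0, summed to 13.54 to 14.01 in lungs and 14.57 to 15.12 in hearts, but its genes did not go one way. In WT mice 2 of the 7 passed higher in lung, the smooth muscle genes Tagln and Cnn1, and 3 passed higher in heart, and in KO mice 0 and 3 did. Their part in the organ differences of the members was not tested.

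For comparison between genes, estimated counts were divided by transcript length and are given as scaled estimated counts per kilobase (mean ± SD, n = 3). In WT lungs Notch2 (570 ± 73.2) and Notch1 (502 ± 84.6) led, followed by Hey1 (403 ± 76.4), Dll4 (354 ± 68.8), Notch4 (300 ± 88.0), Jag1 (263 ± 33.7) and Notch3 (252 ± 40.8), and neighbours in that run overlapped in their libraries. Jag2 (168 ± 35.4), Dll1 (109 ± 2.11) and Hey2 (23.3 ± 4.20) each lay below the gene before them without overlap. In WT hearts Jag2 (265 ± 68.1) came first by its mean, ahead of Notch1 (235 ± 55.8), Notch3 (186 ± 54.8), Notch2 (176 ± 11.7), Dll4 (158 ± 37.7), Notch4 (123 ± 10.3) and Jag1 (107 ± 9.76), each overlapping the next. Hey1 (58.0 ± 10.9) and Hey2 (53.5 ± 4.58) overlapped each other below Jag1, and Dll1 (39.4 ± 6.58) was last. Counted over the length of the longest transcript alone, Jag2 in WT hearts was at 185 and stood behind Notch1 and Notch3.

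The first and last places in KO mice were close to these. In KO lungs Notch1 (584 ± 46.6) and Notch2 (542 ± 54.1) led and overlapped, and Hey2 (26.9 ± 4.41) was again last. Notch3 (339 ± 24.2) there stood ahead of Hey1 (331 ± 85.8), Notch4 and Jag1, each overlapping the next. In KO hearts Jag2 (235 ± 54.6) and Notch1 (225 ± 26.9) led and overlapped, and Dll1 (37.4 ± 3.71) was again last. Over the longest transcript's length, Jag2 in KO hearts was at 185, behind Notch1 and Notch3. The main protein-coding transcript held between 92.8% (Jag2, WT hearts) and 100% of a member's estimated counts in every group, so no member had a second transcript above 10%.

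The organs differed in the share that members took of their family, and the leading member differed in both genotypes only among the ligands. Hey2 made up 5.5% ± 1.0 of the Hey level per kilobase in WT lungs and 48.2% ± 5.1 in WT hearts (SD, n = 3), and 7.7% ± 1.0 and 51.6% ± 5.0 in KO mice. Jag2 made up 18.9% ± 4.3 of the ligand level in WT lungs and 46.2% ± 4.8 in WT hearts, and 19.5% ± 6.5 and 42.7% ± 5.5 in KO mice. Dll4 was the leading ligand in WT lungs at 39.4% ± 3.3 and in KO lungs at 37.8% ± 5.1, and Jag2 led in hearts. Hey1 led Hey2 in lungs, and in hearts the pair were near even in both genotypes. Among receptors Notch1 held a like share everywhere, between 30.8% and 33.2%, while Notch3 went from 15.5% ± 1.2 in WT lungs to 25.5% ± 3.5 in WT hearts and Notch2 from 35.4% ± 6.1 to 24.9% ± 4.8. In KO mice the shifts were smaller by their means, from 19.3% ± 0.66 to 26.2% ± 2.7 for Notch3 and from 30.8% ± 1.0 to 25.3% ± 3.2 for Notch2. Over the longest transcript's length the shifts of the genotypes lay closer together. Notch2 then went from 31.99% to 24.19% in WT and from 30.36% to 23.94% in KO mice. Notch3 went from 17.15% to 26.21% in WT and from 19.98% to 27.71% in KO mice. Whether these shifts of share differed between genotypes was not tested.

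**Figure D3:**
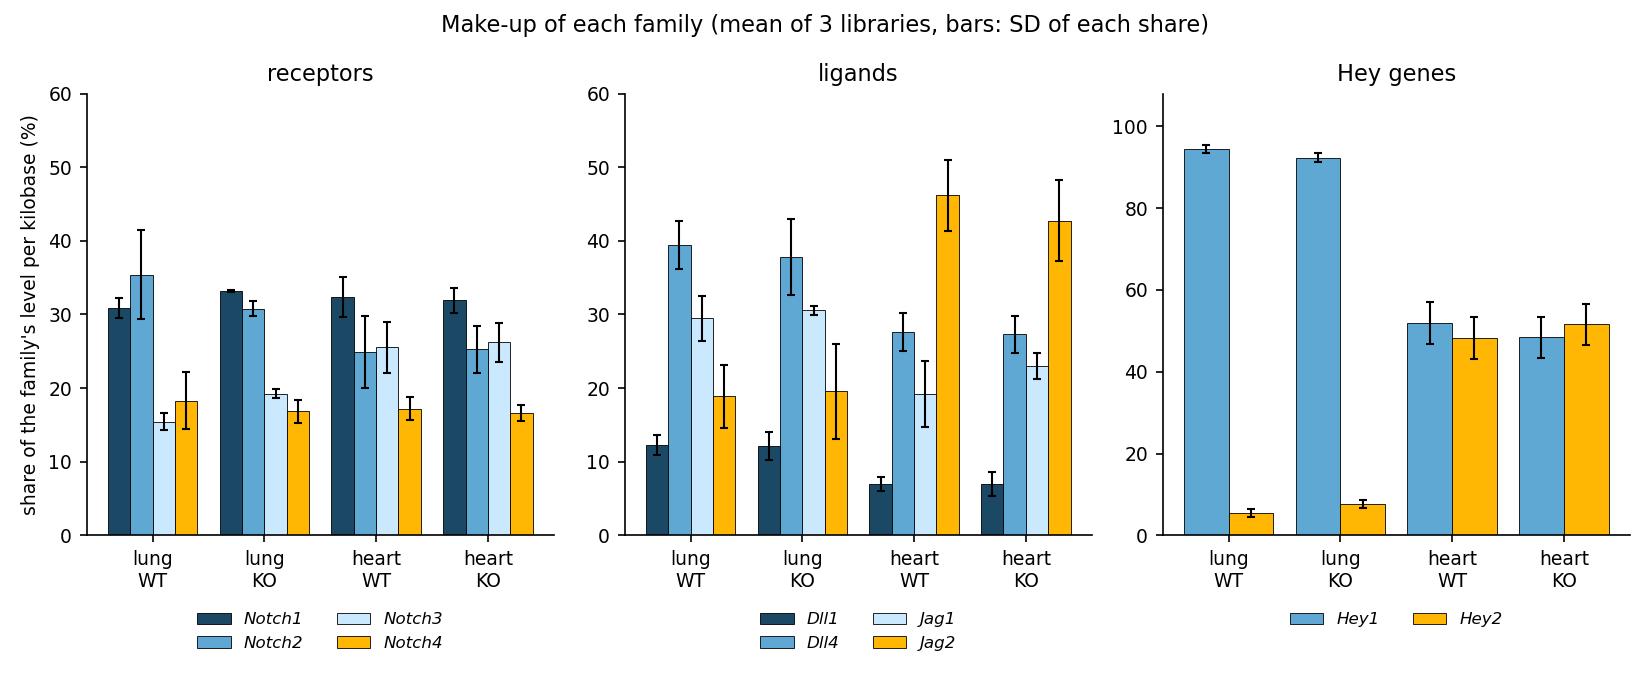
Share of each family's level per kilobase (%, y axis) taken by each member in the 4 groups (x axis), with bars for the mean and whiskers for the SD of 3 libraries. Jag2 and Hey2 take far larger shares in hearts than in lungs, and the receptor shares move less.

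As a ratio of levels per kilobase within a library, Hey1 over Hey2 was 19.4, 13.9 and 19.3 in WT lungs and 1.19, 0.85 and 1.23 in WT hearts. In KO mice it was 13.5, 12.8 and 10.4 in lungs and 0.92, 0.78 and 1.16 in hearts. The lung ratios of KO mice lay below those of WT mice, narrowly at 13.5 against 13.9, while the heart ratios overlapped. Notch1 over Notch2 in lung also separated narrowly, at 0.920, 1.046 and 0.703 in WT and 1.075, 1.051 and 1.110 in KO mice. Of 8 such comparisons of 4 ratios between genotypes, these 2 reached the smallest p that 3 against 3 mice allow, 0.1 (two-sided exact permutation test), which is 0.4 after Benjamini-Hochberg adjustment, so neither passed. The separation of Notch1 over Notch2 depended on the length used. Over the longest transcript's length, Notch1 and Notch2 were at 571 and 515 in WT lung 2 and at 568 and 544 in KO lung 2. The ratio of WT lung 2 was then above that of KO lung 2, and the groups overlapped. Jag2 over Jag1 ran from 0.47 to 0.89 in lungs and from 1.51 to 3.23 in hearts. Over the longest transcript's length, the share of Jag2 among the ligands was 16.6% in WT lungs and 38.3% in WT hearts.

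The second comparison, which is the one the study was designed for, asked whether the loss of Adam19 changed these genes in lung or heart. In the lung 0 of 10 members passed the thresholds (limma), where 11 of 16551 genes did (0.0665%). In the heart 0 of 10 passed (limma), where 13 of 15303 did (0.0850%). At an unadjusted p under 0.05, limma gave 1 of 10 members in each organ, Notch3 in the lung and Hey2 in the heart, where 5.93% of all genes in the lung and 7.46% in the heart did, so the members' share is near that of all genes. Under limma-voom on the estimated counts 0 members passed in either organ.

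**Figure D4:**
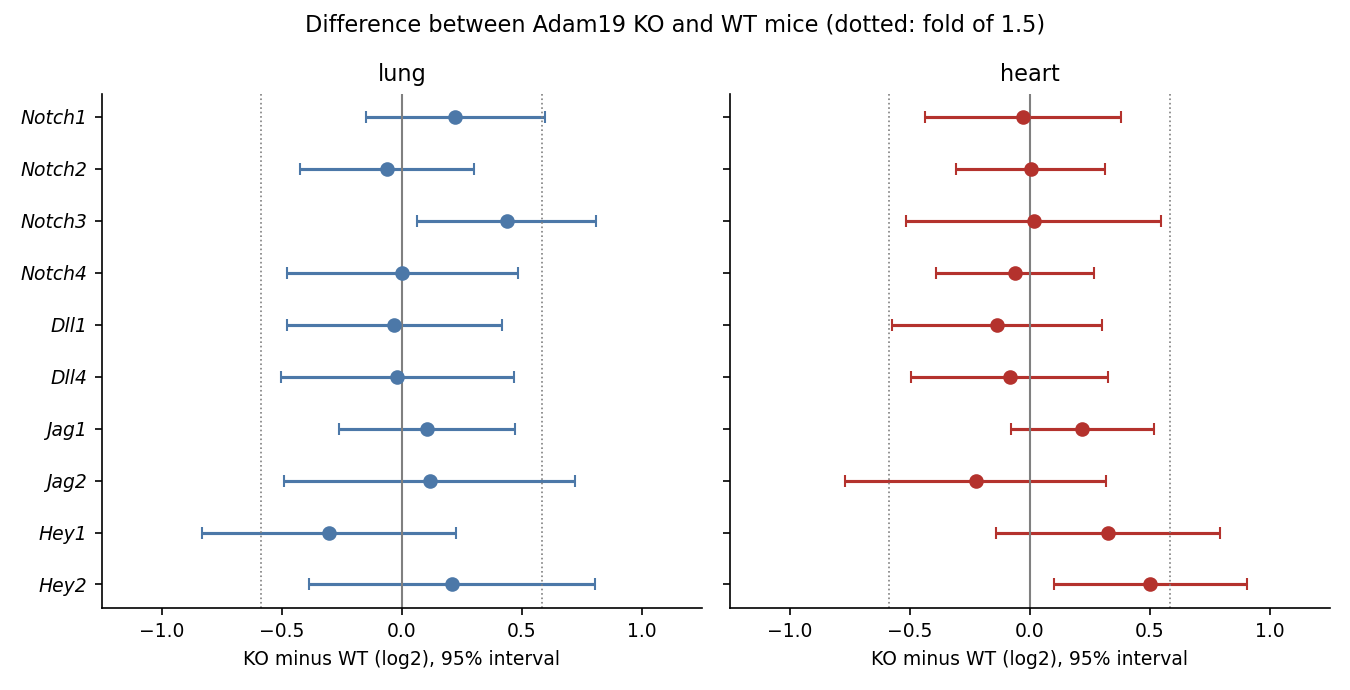
KO minus WT (log2, x axis) with 95% intervals from limma for each gene (y axis) in lung (left) and heart (right), 3 mice per genotype. Dotted lines mark a fold of 1.5. The intervals of Notch3 in lung, 0.06 to 0.81, and Hey2 in heart, 0.10 to 0.90, lie above 0, and all others cross it.

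Notch3 in the lung was the member with the highest KO values relative to WT. KO lungs (11.47, 11.48 and 11.29) all lay above WT lungs (10.96, 11.22 and 10.75), a difference of 0.44 (SE 0.16, 95% interval 0.06 to 0.81) that did not pass (limma adjusted p = 0.806). Groups without overlap were found in 12.8% of all lung genes, and in 6.41% with KO higher, and Notch3 was 1 of 10 members of that kind. In the heart the Notch3 groups overlapped, with a difference of 0.02 (95% interval −0.51 to 0.55). Smooth muscle and pericyte markers, the cells Notch3 is known for, summed to 13.54 to 13.67 in WT and 13.62 to 14.01 in KO lungs, with overlap. Of the 7, 2 had every KO lung above every WT lung, and 1 had an unadjusted p under 0.05 (limma), where 5.93% of all lung genes did. The 2 separated markers, Rgs5 and Cspg4, are named for that separation, and the rest of the 7 lacked it. The share of all lung genes with KO higher and no overlap was the 6.41% given above. Rgs5, a pericyte gene, was at 8.93, 8.85 and 9.60 in WT and 9.80, 9.62 and 10.11 in KO lungs (0.72, limma adjusted p = 0.806). Cspg4, which encodes the pericyte antigen NG2, was at 9.05, 9.07 and 8.66 in WT and at 9.38, 9.60 and 9.08 in KO lungs (0.43, limma adjusted p = 0.836). The 6 heart muscle markers summed to 13.70 to 14.52 in WT and to 13.07 to 13.68 in KO lungs, without overlap. All 6 were lower in KO lungs by their values, and 2 had an unadjusted p under 0.05 (limma), beside the same 5.93% of all lung genes. The part of either list in the Notch3 values was not tested.

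Hey2 in the heart was the other. KO hearts (7.82, 7.56 and 7.49) all lay above WT hearts (7.21, 7.16 and 6.98), a difference of 0.50 (SE 0.18, 95% interval 0.10 to 0.90) that did not pass (limma adjusted p = 0.609). Heart groups did not overlap in 13.0% of all genes and in 7.82% with KO higher, and Hey2 was the one member of 10. Beside it, Hey1 in the heart differed by 0.33 (95% interval −0.14 to 0.79, limma adjusted p = 0.746) and its groups overlapped, with KO heart 2 at 7.76. In the lung Hey2 differed by 0.21 (95% interval −0.39 to 0.80) and Hey1 by −0.30 (95% interval −0.83 to 0.23).

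The smooth muscle and pericyte markers also differed between the heart groups. All 7 were found and none was at 0, and their sum was 14.57 to 14.68 in WT and 14.99 to 15.12 in KO hearts, without overlap. Of the 7 markers, 5 had an unadjusted p under 0.05 in limma, where 7.46% of all heart genes did, and 0 passed. The part of these markers in the Hey2 values was not tested. The endothelium markers summed to 14.05 to 14.16 in WT and to 14.11 to 14.18 in KO hearts, and the heart muscle markers to 20.66 to 20.91 and 20.72 to 20.93.

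For the other receptors KO and WT libraries overlapped in both organs. In the lung Notch1 differed by 0.22 (95% interval −0.15 to 0.60), Notch2 by −0.06 (−0.42 to 0.30) and Notch4 by 0.00 (−0.48 to 0.48). In the heart the values were −0.03 (−0.43 to 0.38), 0.00 (−0.31 to 0.32) and −0.06 (−0.39 to 0.27). With the deposited gene values, the interval stayed within a fold of 1.5 in both directions for each of these except Notch1 in the lung. With summed transcripts, Notch4 in WT lungs spread more, at 10.95, 11.28 and 9.90, and intervals on such sums are not given here.

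The ligands gave lung differences of −0.03 for Dll1 (95% interval −0.48 to 0.42), −0.02 for Dll4 (−0.50 to 0.47), 0.11 for Jag1 (−0.26 to 0.47) and 0.12 for Jag2 (−0.49 to 0.72). Heart differences were −0.14 for Dll1 (−0.57 to 0.30), −0.08 for Dll4 (−0.49 to 0.33), 0.22 for Jag1 (−0.08 to 0.52) and −0.22 for Jag2 (−0.77 to 0.32). KO and WT libraries overlapped for each of them in both organs. Jag1 in hearts came nearest to separation, with the lowest KO heart at 9.38 and the highest WT heart at 9.39. For Dll1, Dll4, Jag1 and Jag2 the direction changed in at least 1 organ with another scaling, another way of summing transcripts or 1 library left out, so no direction is given for them between genotypes. With the deposited gene values, the interval stayed within a fold of 1.5 for Dll1, Dll4 and Jag1 in both organs and for Jag2 in neither. Over all members this held for 5 of 10 in the lung and 7 of 10 in the heart. With summed transcripts, Dll1 in WT hearts spread more, at 7.10, 6.50 and 7.47.

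The third comparison asked whether the genotype difference was unlike in the 2 organs. In 1 model over 12 libraries 0 of 10 members had an adjusted p under 0.05 (limma), where 1 of 17666 genes did (0.00566%), and 0 members had an unadjusted p under 0.05. The lowest unadjusted p among the members was that of Hey1, whose KO minus WT difference was lower in lung than in heart by a log2 value of −0.63 (95% interval −1.34 to 0.08, limma adjusted p = 0.654). Notch3 gave 0.42 (−0.25 to 1.08) and Hey2 −0.29 (−0.96 to 0.37).

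Of 46 other Notch pathway genes, 42 passed the filter in the lung and the heart, and the ligands or ligand-like genes Dll3, Dlk1 and Dlk2 and the target Hes5 stayed too low. Between genotypes 0 of 42 passed in either organ (limma). In the lung 0 had an unadjusted p under 0.05 either. In the heart 5 of 42 did, against 7.46% of all genes, and 4 of them were higher in KO mice by their values: the target Nrarp, a feedback inhibitor of the pathway, by 0.53 (limma adjusted p = 0.634), the gamma-secretase subunit Aph1a by 0.49 (0.484), the target Hes1, a repressor, by 0.46 (0.61) and the gamma-secretase subunit Psenen by 0.33 (0.647). The fifth, Fbxw7, part of the ubiquitin ligase that marks the active receptor for decay, gave −0.27 (0.647).

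Hes1 in hearts was at 8.54, 8.22 and 8.69 in WT and at 9.03, 9.01 and 8.78 in KO mice, and Nrarp at 7.17, 7.46 and 7.66 in WT and at 8.23, 7.74 and 7.90 in KO mice. The low unadjusted p of these genes and the separation of their values are not separate results. Like Hey2, both had every KO heart above every WT heart, as did 7.82% of all heart genes. Heyl, the third Hey gene, did not share this and was at 8.66, 8.72 and 9.05 in WT and at 8.95, 8.42 and 8.22 in KO hearts. In the lung Hes1 differed by −0.16, Nrarp by −0.24 and Heyl by 0.17, all with overlap. The interaction had an unadjusted p under 0.05 for 2 of 42 pathway genes, Nrarp (−0.77, limma adjusted p = 0.623) and Hes1 (−0.62, 0.634), a smaller share than the 7.88% of all genes.

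The sheddases Adam10 and Adam17, which can make the outer cut in receptors and ligands, did not pass between genotypes. Adam10 differed by 0.08 in the lung (limma adjusted p = 0.946) and by −0.19 in the heart (0.815). Adam17 differed by −0.35 in the lung (limma adjusted p = 0.837) and by −0.16 in the heart (0.783). Its KO lungs at 10.77, 10.55 and 10.67 lay below the WT lungs at 10.86, 10.84 and 11.34. Groups without overlap, in either direction, were found in 12.8% of all lung genes. Rbpj differed by 0.05 in the lung and −0.21 in the heart.

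Between organs, 23 of 42 pathway genes passed in WT mice and 25 in KO mice, close to the 50.2% and 53.2% of all genes. In WT mice 18 were higher in lung and 5 higher in heart, where 29.7% and 20.5% of all genes passed in those directions. In KO mice 22 were higher in lung and 3 higher in heart, where 30.9% and 22.3% of all genes did. The fringe enzymes Lfng and Mfng, which add sugars that tune which ligand a receptor answers to, were 2.59 and 2.15 higher in WT lungs and 2.37 and 1.78 higher in KO lungs. Aph1c, a gamma-secretase subunit, had the widest difference, 3.41 in WT and 2.83 in KO mice, but it is 96.12% identical to Aph1b over 2139 bases, and the split of reads between them is uncertain. Fbxw7 was 1.95 and Epn1, an endocytic adaptor, 1.47 higher in WT hearts, and 1.76 and 1.74 higher in KO hearts. Adam10 was higher in lung by 0.77 in WT and 1.03 in KO mice and passed in both, while Adam17, at 0.58 and 0.39, was under the fold of 1.5.

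The other targets fell on both sides, as the Hey genes did. Hes1 was higher in lung by 1.59 in WT and 0.97 in KO mice and Nrarp by 1.94 and 1.17, and all 4 values passed. Heyl was higher in WT hearts by 0.83, which passed (limma adjusted p = 0.00763), and by 0.37 in KO hearts, which did not (0.131). Dtx1, a Deltex protein that binds the receptor, was higher in lung by 1.97 in WT and 1.48 in KO mice.

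**Figure D5:**
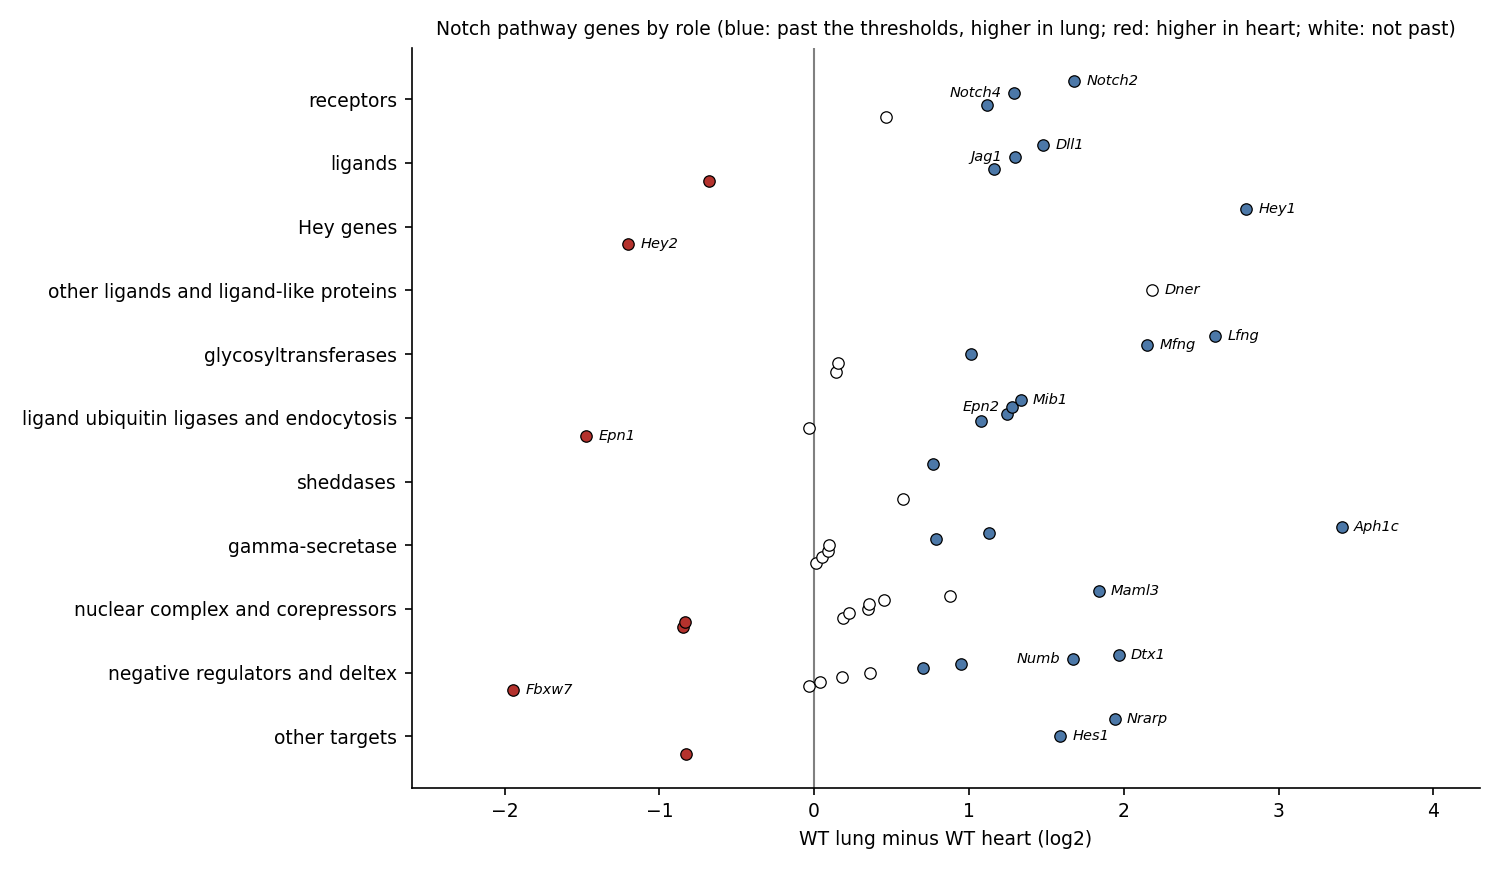
WT lung minus WT heart (log2, x axis) for the members and the other tested pathway genes, grouped by role (y axis), 3 mice per organ. Filled points passed the thresholds, blue higher in lung and red higher in heart. Points to the right are in the majority, and Hey2, Jag2, Heyl, Fbxw7 and Epn1 are among the red ones.

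The values of the members across the 12 libraries were also compared with those of 17656 other genes, each centred on its own mean, by the root mean square difference on the log2 scale. The nearest gene to Notch2 was Twf1 (0.088), to Jag1 Rftn2 (0.099), to Notch4 Trerf1 (0.112), to Notch1 Pakap (0.127) and to Notch3 Mboat7 (0.139). For Hey2 it was Scube3 (0.14), for Dll1 Egfr (0.141), for Dll4 Sh3bp4 (0.146), for Hey1 Msl3l2 (0.182) and for Jag2 Zswim9 (0.197). Among the members themselves the nearest pairs were Notch1 with Dll4 (0.155), Notch1 with Notch4 (0.178) and Notch2 with Dll1 (0.18). The organ difference enters each of these values, since 6 libraries come from each organ.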

How the data were processed

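Strand-specific RNA-Seq libraries of lung and heart from 3 Adam19 WT and 3 KO mice were analysed. The authors quantified reads against GENCODE vM33 transcripts (mm39) with Salmon and deposited gene and transcript values on a log2 scale. The deposited transcript values are log2(1 + estimated count), and where a gene has a single transcript of value 9 or above, its gene value adds a constant per library (between −0.63 and 0.80, with at least 94.7% of these genes within 0.01). How transcripts of other genes were combined is not given in the sources used here. Since the values are log2 values, limma 3.58.1 (lmFit, eBayes with trend, R 4.3.3) took the place of a count test. Tested were genes at 3.46 or above, log2(1 + 10), in 3 or more libraries (16551 in lung, 15303 in heart), with Benjamini-Hochberg adjustment over all of them and the study's thresholds (adjusted p under 0.05, fold of at least 1.5, group mean of at least 6). The fits were tested on simulated data with 200 changed genes per comparison, at log2 differences of 1 or 2. Those of 1 were recovered for 82 genes in lung and 94 in heart between genotypes. Smaller changes, such as those of the members between genotypes, were not simulated. The simulation therefore does not show whether such changes would pass.

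The members, the pathway list and the marker lists were chosen with earlier results of these data known. The genes named are all members, Adam19, of the pathway list Adam10, Adam17, Rbpj, Hes1, Heyl, Lfng and Mfng, those with an unadjusted p under 0.05 between genotypes and up to 5 with the largest difference in each organ comparison, and the genes nearest to a member. The markers Rgs5, Cspg4, Tagln and Cnn1 were named after their values were seen. A gene of the pathway list and a promoter sequence are not reported here. Levels per kilobase are sums over transcripts of estimated count over length (GENCODE vM39), on the scale of the library constants. Positions come from GENCODE vM39, which matched 99.0% of gene identifiers, promoter bases from GRCm39 and copies of genes from blastn 2.17.0. Lung and heart were paired by mouse identity, and the correlations of their deviations from the group means, over 17666 genes, lay between −0.068 and 0.136 in the 6 mice.

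The alternatives were a median-ratio scaling, summed transcripts, no filter, a pseudocount of 10, limma-voom on the values turned back to estimated counts, all 12 libraries in 1 model, a replicate block, each library left out, and the adjusted p alone, the last chosen after seeing the data.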

Additional observations from a re-analysis of the deposited data

How the results depend on the processing

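Between genotypes 0 of 10 members and 0 of the 41 to 46 pathway genes tested passed under every alternative run, in either organ and in the interaction. Between organs 8 or 9 of 10 members passed in WT and 9 or 10 in KO mice under the alternatives. The changes were Jag2 and Notch3 as given in the report, and the cause was not tested. Of 560 refits of single members, 518 kept direction and call, 8 lost the call, 2 gained it and 32 reversed. All reversals were of differences between genotypes, or between those of the organs, that did not pass, with reported values between −0.22 (Jag2 in the heart) and 0.34 (Jag2 in the interaction).

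With summed transcripts the lung KO minus WT difference became 0.16 for Notch2, 0.087 for Dll1 and −0.071 for Jag2, and the heart difference −0.067 for Notch2, 0.11 for Dll1 and 0.017 for Jag2. The interaction became 0.23 for Notch2, −0.026 for Dll1 and −0.088 for Jag2. Under median-ratio scaling the heart difference of Notch2 was −0.00853. Leaving out 1 library at a time, the lung difference ranged from −0.16 to 0.15 for Dll1, −0.18 to 0.15 for Dll4, −0.0042 to 0.19 for Jag1, −0.15 to 0.27 for Jag2, −0.16 to 0.025 for Notch2, −0.20 to 0.19 for Notch4 and −0.057 to 0.20 for Adam10. The heart difference ranged from −0.19 to 0.10 for Dll4, −0.14 to 0.15 for Notch1, −0.11 to 0.079 for Notch2, −0.11 to 0.25 for Notch3 and −0.16 to 0.038 for Notch4.

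With the replicate block, the mouse as a block, 8 members passed between organs in WT mice and 9 in KO mice, and the block changed no other member's call. Of the pathway genes, Adam10 in WT and Rbpj in KO mice lost the call under some alternatives and Adam17 in WT mice gained it. With 3 mice per group, an exact permutation test cannot give a p below 0.10.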
